A study of Canis lupus familiaris with 34 samples.

Results

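The natriuretic peptide system was examined in the mitral valves of Cavalier King Charles Spaniels, through the 8 genes NPPA, NPPB, NPPC, NPR1, NPR2, NPR3, CORIN and FURIN. They were chosen by symbol as the cardiac peptides, their receptors and the enzymes that mature the peptides, and all 8 were among the 23768 features of the count table and passed the filter of at least 100 counts in all, which kept 19568 features. Polyadenylated RNA was sequenced from 34 valves of privately owned dogs of about 10 years of age, each dog 1 sample. The 15 dogs labelled case (6 females, 9 males; 10y-MMVD-CHF) had myxomatous mitral valve disease (MMVD), the degenerative thickening of the valve leaflets to which the breed is prone, together with congestive heart failure (CHF). The 19 dogs labelled ctrl (10 females, 9 males; 10y-noCHF) had no CHF, but this group is not one of healthy valves, because nearly all of its dogs had the valve disease at a stage before failure. Response to diuretics was part of the CHF diagnosis, so heart failure and its drug treatment cannot be told apart here. Stage, weight and exact age were not tied to single dogs in the labels.

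Natriuretic peptides are hormones that lower blood volume and pressure. NPPA encodes atrial natriuretic peptide (ANP) and NPPB encodes B-type natriuretic peptide (BNP), both made by stretched heart muscle, while NPPC encodes C-type natriuretic peptide (CNP), made largely by endothelium and acting locally. ANP and BNP bind NPR1, and CNP binds NPR2. Both receptors are guanylyl cyclases that make cyclic GMP. NPR3 removes all the peptides from the circulation, CORIN cuts the ANP precursor, and FURIN cuts the precursors of BNP and CNP. BNP fragments in blood are used in dogs with mitral disease as a marker of cardiac stretch.

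Between 46185256 and 82361245 counts were assigned per dog, and no pair of dogs had identical counts. As a check of the tissue, the mean of 10 valve interstitial markers lay between 9.74 and 11 log2 CPM in every dog (CPM is the count relative to the scaled library size), whereas the mean of 20 cardiomyocyte markers ran from -0.474 in CAV749 to 10.6 in CAV1047. The valves thus differed widely in heart muscle transcripts. In a bulk sample, fewer cells of a type and less RNA per cell cannot be told apart. In log2 CPM the cardiomyocyte mean was 6.10 ± 2.88 with CHF (SD, n = 15) against 5.73 ± 3.34 without (SD, n = 19), a difference of 0.37 (two-sided permutation test, p = 0.736). Atrial markers led among them. MYL7, the atrial regulatory light chain, had a median of 135 CPM, and MYL2, its ventricular counterpart, a median of 1.27 CPM.

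NPPC was the member that separated the dogs by heart failure most. In 10y-MMVD-CHF its level ran from 1.64 CPM in CAV1047 through a median of 12.6 to 27.5 CPM in CAV648. In 10y-noCHF it ran from 0.551 CPM in CAV447 through a median of 2.18 to 16.3 CPM in CAV579. The groups overlapped, but 14 of 15 dogs with CHF lay above the median of the dogs without, and 3 of 15 lay above their highest value. Means were 11.8 ± 8.08 CPM (SD, n = 15) against 3.60 ± 3.88 CPM (SD, n = 19). The fitted log2 fold change was 1.81 (SE 0.43, approximate 95% interval 0.97 to 2.65), or 3.50-fold higher with CHF.

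By edgeR's quasi-likelihood test with Benjamini-Hochberg adjustment over all features, NPPC had p = 0.000177 and an adjusted p of 0.135, rank 25 of 19568, and so missed the threshold of 0.1. DESeq2, with the same fold change, gave an adjusted p of 0.00997, and limma voom with sample weights gave 0.0522 at a log2 fold change of 2.03 (0.128% of all features passed). A two-sided permutation test within sex on log2(CPM + 1) gave a difference of 1.5 (p = 0.00023). Leaving out 1 dog at a time moved the edgeR log2 fold change between 1.67, without CAV648, and 2.04, without CAV579. The adjusted p fell below 0.1 without CAV1041, CAV1047 or CAV579 and was highest, at 0.332, without CAV1519. NPPC is among the genes that the study itself listed as different in these dogs, so its position is not independent evidence.

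By edgeR none of the 8 genes passed the threshold (0 of 8), against 23 of 19568 features or 0.118% of all those tested. By DESeq2 1 of 8 passed, NPPC, against a background of 0.327%. At an unadjusted p under 0.05 the count by edgeR was again 1 of 8, against 6.31% of all features. The median log2 fold change was 0.069 over the 8 genes and 0.0076 over all features.

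**Figure D1:**
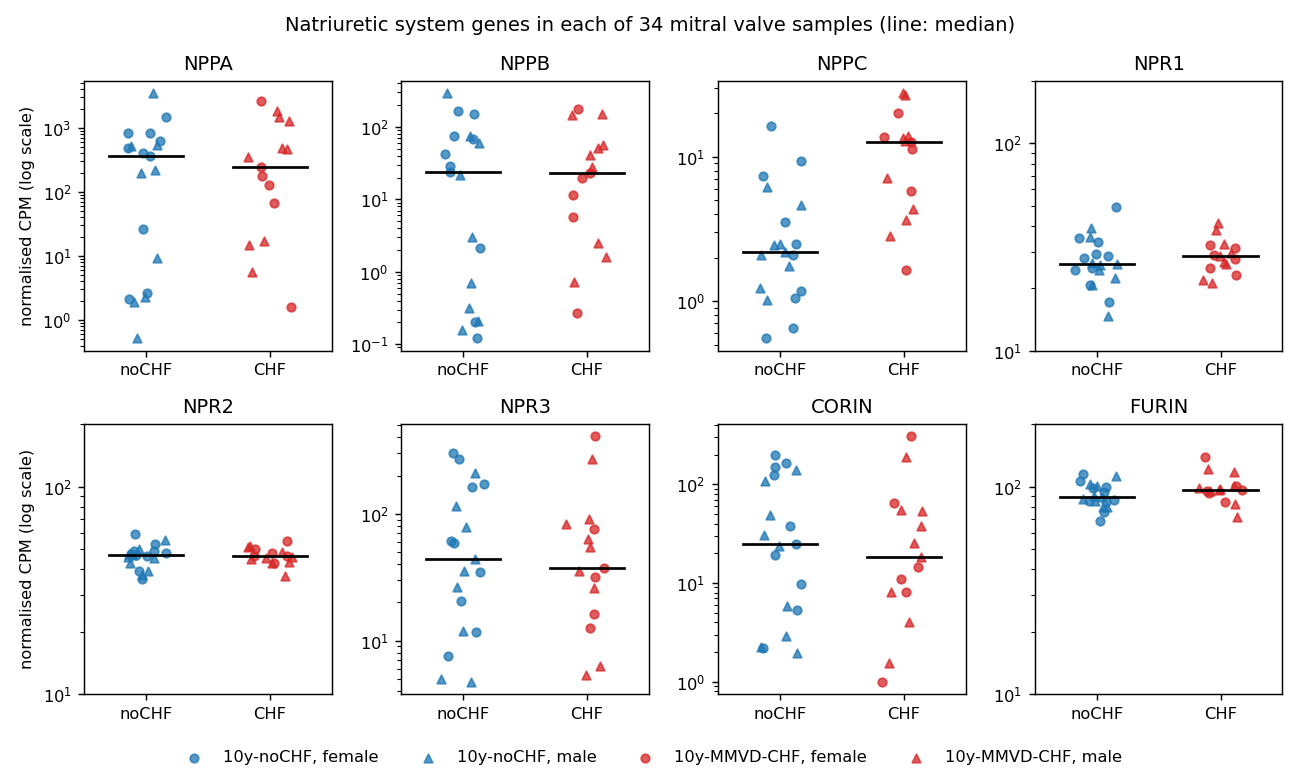
Normalised CPM (log scale) of the 8 genes in each of 34 dogs, in 10y-noCHF (blue, n = 19) and 10y-MMVD-CHF (red, n = 15); circles are females, triangles males, and the line is the group median. NPPC medians differ, 2.18 against 12.6 CPM, while NPPA, NPPB, NPR3 and CORIN spread widely within both groups.

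In females NPPC ran from 1.64 to 20 CPM with CHF (median 12, n = 6) and from 0.551 to 16.3 CPM without (median 2.29, n = 10). In males it ran from 2.84 to 27.5 CPM with CHF (median 12.9, n = 9) and from 1.01 to 6.13 CPM without (median 2.18, n = 9). The groups overlapped in both sexes. The edgeR log2 fold change was 1.29 (SE 0.60) in females and 2.23 (SE 0.59) in males. The difference between the sexes was 0.94 (SE 0.84), with an adjusted p of 0.937 by edgeR. None of the 8 genes had an interaction of CHF and sex past the threshold by edgeR or DESeq2 (0 of 8, background 0% by edgeR and 0.0153% by DESeq2), and none had an unadjusted p under 0.05. For sex itself the count by edgeR was 0 of 8, against 0.143% of all features, and 0 of 8 at an unadjusted p under 0.05.

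The cardiac peptides behaved otherwise. NPPA, the ANP gene, ran from 1.61 CPM in CAV1196 through a median of 247 to 2580 CPM in CAV1047 among dogs with CHF. Without CHF it ran from 0.516 CPM in CAV749 through a median of 358 to 3460 CPM in CAV865. The range over all dogs was 6700-fold, and the groups covered nearly the same span. NPPA had a log2 fold change of 0.18 (SE 0.90, interval -1.59 to 1.95), with an adjusted p of 0.989 by edgeR. NPPB, the BNP gene, ran from 0.273 to 177 CPM with CHF (median 22.8) and from 0.120 to 292 CPM without (median 24.1), a 2430-fold range. Its log2 fold change was -0.17 (SE 0.89, interval -1.91 to 1.57), also with an adjusted p of 0.989 by edgeR. Limma voom with sample weights put NPPA at 1.37 (SE 1.17) and NPPB at 1.26 (SE 1.08), each with an adjusted p of 0.748. Both edgeR intervals are wide enough to hold sizeable differences in either direction.

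NPPA and NPPB followed the cardiomyocyte markers from dog to dog. Pearson's r with the cardiomyocyte mean was 0.974 for NPPA and 0.955 for NPPB over 34 dogs, and Spearman's rho was 0.964 and 0.938. Each permutation p was 1e-05, the smallest that 100000 resamples can give, and 4e-05 after Benjamini-Hochberg adjustment over the 16 relations computed. Without the 2 dogs farthest from the median, CAV749 and CAV1196, r was 0.967 and 0.947. Within 10y-MMVD-CHF r was 0.975 and 0.954, and within 10y-noCHF 0.976 and 0.961. In the edgeR fit, each unit of the cardiomyocyte mean, a doubling of the markers, went with 1.14 more log2 units of NPPA (SE 0.060) and 1.07 more of NPPB (SE 0.068).

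NPPA and NPPB also followed each other, with r = 0.976 and rho = 0.964 over 34 dogs (permutation p = 1e-05, the smallest possible, adjusted 4.67e-05 over 28 pairs of the genes). For every 100 NPPA counts there were 2.85 to 17 NPPB counts with CHF (median 9.29) and 1.39 to 30 without (median 9.23). Both upper ends rest on few counts, 18 of NPPB and 106 of NPPA in CAV1196 with CHF and 12 and 40 in CAV749 without. The medians of this ratio nearly coincided. Set against MYL7, NPPA gave 0.576 to 4.35 counts per MYL7 count with CHF (median 2.16) and 0.249 to 4.19 without (median 1.5), and these ranges overlapped as well.

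The comparison was repeated with the cardiomyocyte mean as a covariate, which lowered the errors of both genes. With it the log2 fold change between the groups was 0.33 for NPPA (SE 0.27, interval -0.19 to 0.85, adjusted p = 0.801) and 0.36 for NPPB (SE 0.33, interval -0.28 to 0.99, adjusted p = 0.828) by edgeR. By this fit NPPB was above 0 where it had been below, and neither passed the threshold. NPPC kept its value in that fit, 1.80 (SE 0.43), with an adjusted p of 0.105. Over all features 0.153% passed in the fit with the covariate.

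**Figure D2:**
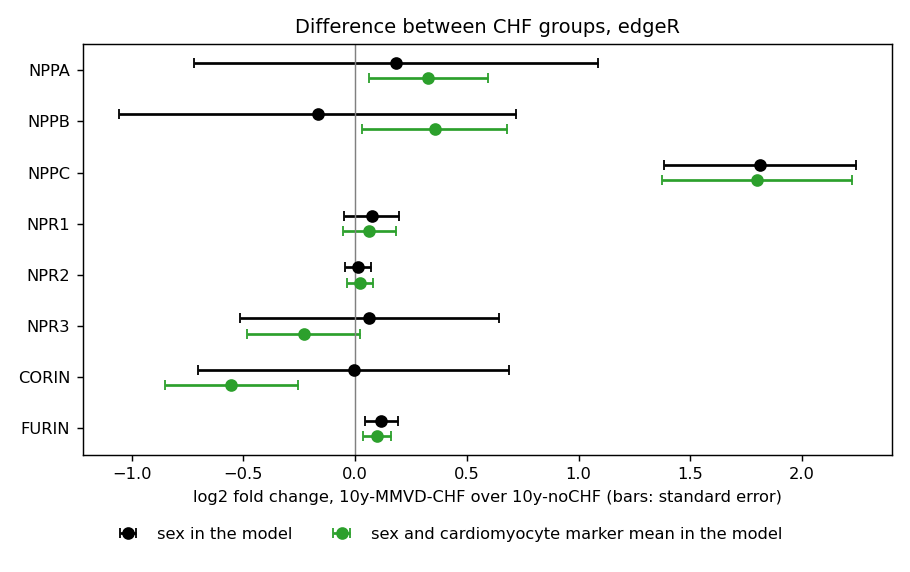
The log2 fold change of 10y-MMVD-CHF (n = 15) over 10y-noCHF (n = 19) for each of the 8 genes by edgeR, with sex in the model (black) and with sex and the cardiomyocyte marker mean (green); bars are 1 standard error. The error of NPPA falls from 0.90 to 0.27 with the covariate, and NPPC stays near 1.8 in both.

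Of the receptors, NPR2, the CNP receptor, was the steadiest of the 8 genes. It lay between 35.7 and 59.1 CPM in all 34 dogs, a 1.66-fold range with a coefficient of variation of 11.2%. The median was 46.4 CPM with CHF (37.1 to 54.6) and 46.9 CPM without (35.7 to 59.1). NPR2 had a log2 fold change of 0.012 (SE 0.058, interval -0.10 to 0.13), with an adjusted p of 0.989 by edgeR. The NPR2 feature overlapped SPAG8, a gene on the other strand with 27724 counts, over 1492 bases, and reads there could count for both.

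NPR1, the ANP and BNP receptor, ran from 21.1 CPM in CAV2156 through a median of 28.6 to 41.2 CPM in CAV648 with CHF, and from 14.7 CPM in CAV865 through a median of 26.3 to 49.4 CPM in CAV748 without. For NPR1 the log2 fold change was 0.075 (SE 0.12, interval -0.17 to 0.32), with an adjusted p of 0.961 by edgeR. NPR1 went with the endothelial markers rather than the muscle markers. Its r with the mean of 12 endothelial markers was 0.530 and rho 0.551 (permutation p = 0.00108 and 0.00085, adjusted 0.00301 and 0.00227), and r was 0.466 without CAV648 and CAV743, the dogs farthest from the median. Within 10y-MMVD-CHF r was 0.533 (permutation p = 0.0405, adjusted 0.108) and rho 0.307 (permutation p = 0.265, adjusted 0.606), so neither passed the threshold there. Within 10y-noCHF r was 0.534 (permutation p = 0.018, adjusted 0.0576) and rho 0.637 (permutation p = 0.00412, adjusted 0.0132). By edgeR, NPR1 was the 1 gene of 8 with a slope on the endothelial mean past the threshold (0.79, SE 0.21, adjusted p = 0.0742), against 0.991% of all features. The endothelial mean was 5.48 ± 0.22 log2 CPM (SD, n = 15) with CHF and 5.46 ± 0.26 (SD, n = 19) without.

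NPR3, the clearance receptor, ran from 5.36 CPM in CAV614 through a median of 37.6 to 406 CPM in CAV1047 with CHF, and from 4.75 CPM in CAV1049 through a median of 44.0 to 300 CPM in CAV1731 without. Its log2 fold change was 0.064 (SE 0.58, interval -1.07 to 1.20), with an adjusted p of 0.993 by edgeR. It was below 0, at -0.23 (SE 0.25), with the cardiomyocyte covariate. Unlike the cyclase receptors it followed the cardiomyocyte mean (r = 0.919, rho = 0.952, permutation p = 1e-05, adjusted 4e-05, and r = 0.921 without CAV749 and CAV1196). Its slope, 0.52 (interval 0.43 to 0.60), lay under that of NPPA, 1.14 (interval 1.02 to 1.26). The difference of the slopes was not tested.

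CORIN, the ANP-activating protease, ran from 1 CPM in CAV1196 through a median of 18.3 to 305 CPM in CAV1047 with CHF, and from 1.97 CPM in CAV444 through a median of 25 to 199 CPM in CAV1731 without. CHF went with a log2 fold change of -0.0065 (SE 0.69, interval -1.37 to 1.35), with an adjusted p of 0.999 by edgeR. With the cardiomyocyte covariate it was -0.55 (SE 0.30, interval -1.14 to 0.032), with p = 0.0727 and an adjusted p of 0.685. CORIN followed the cardiomyocyte mean (r = 0.923, rho = 0.940, permutation p = 1e-05, adjusted 4e-05) with a slope of 0.66 (SE 0.052), and r was 0.939 without CAV749 and CAV1196. NPR3 and CORIN followed each other at r = 0.924 and rho = 0.948 (permutation p = 1e-05, adjusted 4.67e-05).

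FURIN, a convertase found in most cells, stayed within a 2.02-fold range. It ran from 71.7 CPM in CAV487 through a median of 96.5 to 139 CPM in CAV1047 with CHF, and from 68.6 CPM in CAV576 through a median of 88.9 to 115 CPM in CAV1731 without. Of the dogs with CHF 12 of 15 lay above the median of those without, and the groups overlapped. The log2 fold change was 0.12 (SE 0.075, interval -0.029 to 0.26), with an adjusted p of 0.848 by edgeR. FURIN rose with the cardiomyocyte mean by a small slope of 0.037 (SE 0.010, adjusted p = 0.00534 by edgeR).

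In all, 5 of 8 genes (NPPA, NPPB, NPR3, CORIN and FURIN) had a slope on the cardiomyocyte mean past the threshold by edgeR, against 37.5% of all features. The slopes of NPPC (0.017, SE 0.073), NPR1 (0.032, SE 0.019) and NPR2 (-0.014, SE 0.0093) did not pass. For none of the 8 genes did the slope differ between dogs with and without CHF past the threshold (0 of 8, background 0%), and none had an unadjusted p under 0.05 for that difference. NPPC had r = -0.0185 with the cardiomyocyte mean and 0.0834 with the endothelial mean (permutation p = 0.918 and 0.639).

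**Figure D3:**
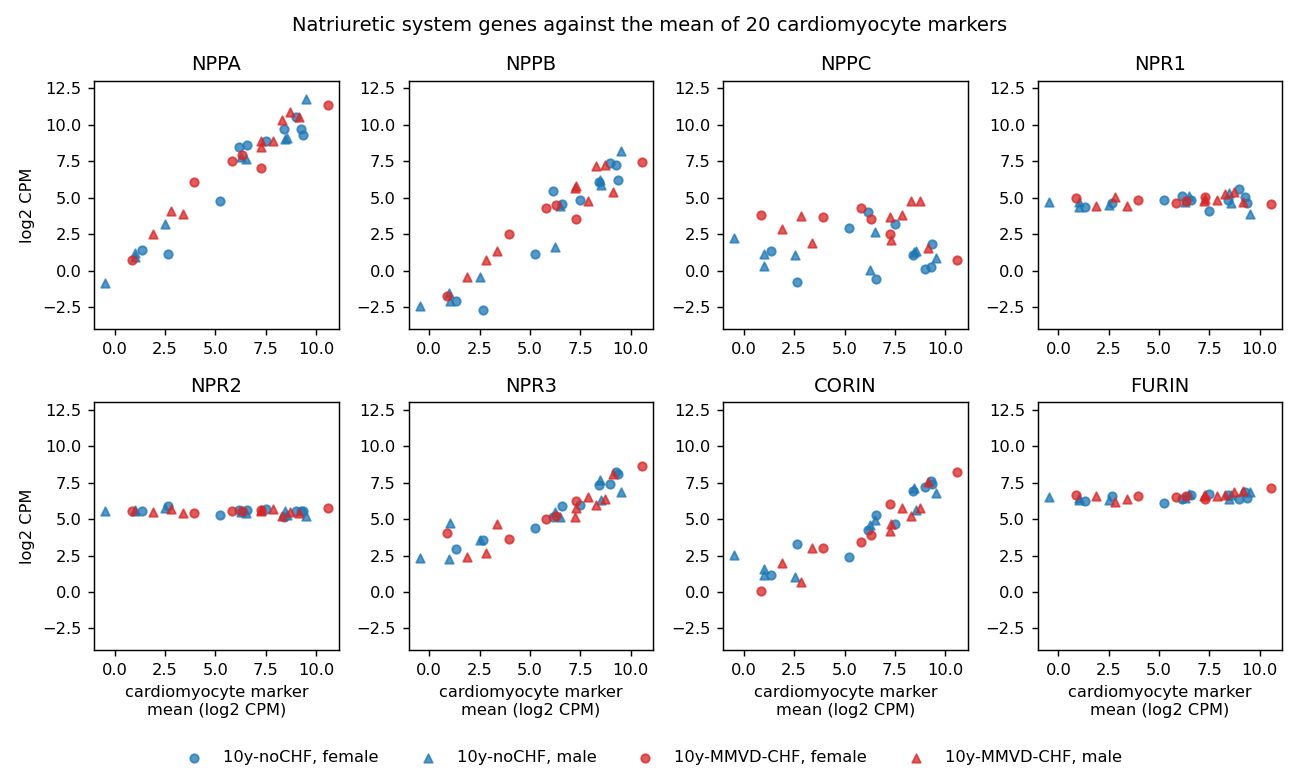
Log2 CPM of the 8 genes against the mean log2 CPM of 20 cardiomyocyte markers in 34 dogs (colours and shapes by group and sex). NPPA, NPPB, NPR3 and CORIN climb with the marker mean, with r from 0.919 to 0.974, while NPR2 and NPPC do not.

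**Figure D4:**
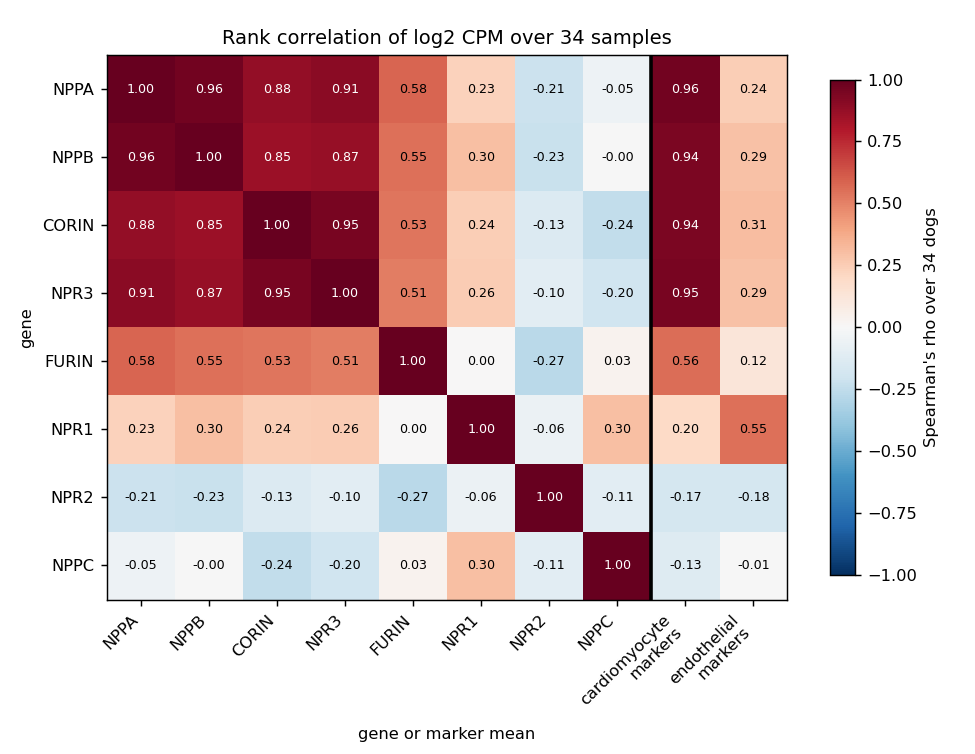
Spearman's rho between the log2 CPM of the 8 genes, and with the cardiomyocyte and endothelial marker means (right of the line), over 34 dogs. NPPA, NPPB, CORIN and NPR3 form a block, NPR1 has its highest value with the endothelial markers (0.55), and NPPC stays at or under 0.30 with all others.

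The genes outside the set whose levels ran closest to each member over the 34 dogs, by Spearman's rho among features with a mean of at least 1 CPM, are given as a description with no test. For NPPA they included MYL4, the atrial essential light chain (0.971), and the oxygen carrier MB (0.966). For NPPB they were ANKRD1, a stretch-responsive muscle protein (0.976), SYNPO2L (0.948) and TRIM55 (0.947). For NPR3 they were USP28 (0.974), CCDC85A (0.973) and LOC474938 (0.972), and for CORIN the sarcomere gene NEBL (0.976), PLA2G4E (0.971) and FSD2 (0.969). Of 16171 features ranked, those above 0.9 numbered 287 for NPPA, 164 for NPPB, 451 for NPR3 and 397 for CORIN. There were 0 for each of the other 4 genes. For NPPC the closest genes included INHBA, which encodes an activin subunit (0.817), and ASS1, which supplies arginine for nitric oxide synthesis (0.813). Both groups were ranked together, and the study listed NPPC and ASS1 as higher with CHF. The part of the group difference in this likeness was not tested. For NPR1 they were NOS3, the endothelial nitric oxide synthase (0.873), CCM2L (0.833) and ATG9B (0.817). The ATG9B feature overlaps NOS3 on the other strand, and without strand their shared reads cannot be told apart. NPR2 had no close companion, with FAM20A (0.694), PIGS (0.691) and BCAS3 (0.689) first. For FURIN they were NRDE2 (0.794), PGAM1 (0.753) and PGAM1P5 (0.753), and the PGAM1 features cover the same stretch of genome.

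Of 55 other genes of the pathway, listed by role, 51 passed the filter of 100 counts. Of these, 31 had a fold change above 0 and 20 below, with a median log2 fold change of 0.064. None passed the threshold by edgeR (0 of 51) or by DESeq2 (0 of 51), and 6 of 51 had an unadjusted p under 0.05 by edgeR, 4 higher and 2 lower, against 6.31% of all features. Among the 16 tested genes that make or break down cyclic GMP, the smallest p belonged to PDE3B, a phosphodiesterase, at -0.14 log2 (SE 0.085), and to the gut guanylyl cyclase GUCY2C at 0.93 (SE 0.67), which had 214 counts in all. Among 10 effectors of cyclic GMP, KCNMA1, a potassium channel, was at -0.58 (SE 0.21, 4.27 ± 1.69 against 6.40 ± 2.77 CPM, SD) and IRAG1 at 0.21 (SE 0.10). Among 6 genes for peptide breakdown or another ligand of NPR3, the peptidase MME was at 0.82 (SE 0.34). For MME only 7 of 15 dogs with CHF lay above the median without. OSTN was at -1.25 (SE 0.62) and had 392 counts in all. Among 7 convertases and activators, ST14, a membrane protease, was at 0.61 (SE 0.20, 13 of 15 dogs with CHF above the median without) and PCSK6 at -0.37 (SE 0.14). Among 12 transcription factors of NPPA and NPPB, TEAD1 was at 0.23 (SE 0.084, 15 of 15 dogs with CHF above the median without) and MEF2C at 0.14 (SE 0.10). Adjusted p by edgeR for these 10 genes lay between 0.480 and 0.884.

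The positions, on the dog assembly UU_Cfam_GSD_1.0, put NPPA at chr2:83882544-83884343 and NPPB beside it at chr2:83872514-83873909, both on the plus strand. NPPC lay at chr25:43896979-43901378, NPR1 at chr7:43371728-43385041, NPR3 at chr4:75708333-75777745, CORIN at chr13:44200660-44391278 and FURIN at chr3:53844350-53855916, all on the minus strand, and NPR2 at chr11:52615554-52634451 on the plus strand. NPPA was counted over 944 bases of exons, and each of the other 7 over its whole span with introns, so the scale per length differs between them. In median CPM per kilobase of counted length the order over 34 dogs was NPPA (316), NPPB (16.8), FURIN (8.24), NPR2 (2.47), NPR1 (2.05), NPPC (0.903), NPR3 (0.588) and CORIN (0.127). The ranges over dogs overlapped between all neighbours in this order except FURIN and NPR2, and levels per mRNA are not known from it.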

How the data were processed

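The authors aligned paired-end reads with STAR to the dog assembly UU_Cfam_GSD_1.0 and deposited raw counts per feature from featureCounts 2.0.3 (per the file headers), against canine RefSeq and aligned human RefSeq models, counting the reads of a pair singly, with overlaps allowed and no strand. Of 35 count columns, 1 belonged to no labelled sample and was not used. Of the features from human models on 1 chromosome, 97.8% were counted over their whole span.

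Here features reaching 100 counts over all dogs were tested with edgeR 4.0.16 in R 4.3.3 (TMM, quasi-likelihood, model of sex and CHF), with Benjamini-Hochberg adjustment over all features and a threshold of 0.1. DESeq2 1.42.0 and limma 3.58.1 were alternatives. Standard errors come from the F statistic and intervals are normal approximations. CPM are TMM-scaled, and log2 CPM use a prior count of 2. Correlations and differences of marker means used permutation tests of 100000 resamples. The scripts were tested on simulated data. Named beyond the 8 genes were, per pathway list, those past the threshold and the 2 with the smallest p, and per member the 3 symbols with the highest Spearman's rho, some of which are not reported here. The members and lists were chosen with earlier results of these data known. Each sample is 1 dog, so p-values measure the spread between dogs.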

Additional observations from a re-analysis of the deposited data

Results flagged for a closer look

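Of 32 tests of a dog far from the others in its group of status and sex, 1 was positive, where chance gives about 1.6. It was FURIN in the females with CHF, where CAV1047, at 139 CPM, was highest and the next dog was at 101 CPM, a gap of 0.641 of the group's range on the log2 scale. Without CAV1047 the log2 fold change of FURIN with CHF was 0.07, against 0.12 with it. CAV1047 also had the highest cardiomyocyte marker mean, 10.6 log2 CPM. The part of that in the FURIN value was not tested.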

How the results depend on the processing

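NPPC kept its direction in all 13 alternatives, with log2 values from 1.5 in the permutation test to 2.03. It passed the threshold with DESeq2 (1.81), DESeq2 with the cardiomyocyte covariate (1.80), limma voom (2.03) and without both CAV1047, the dog with the highest cardiomyocyte mean, and CAV614, the dog with the highest red blood cell marker mean (1.96). Under each of these 4, 1 of 8 genes was called. Over all features, 64 were called by DESeq2, 125 by DESeq2 with the cardiomyocyte covariate and 13 with no sex term, against 23.

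The other genes, none of them called, changed sign as follows on the log2 scale, and the cause was not tested. Without CAV1047 and CAV614, NPPA was at -0.517, NPR2 at -0.00416 and NPR3 at -0.405. By limma voom NPPB was at 1.26 and NPR2 at -0.00413. With the cardiomyocyte covariate NPPB was at 0.356 and NPR3 at -0.231, with both covariates at 0.353 and -0.187, and by DESeq2 with the cardiomyocyte covariate at 0.38 and -0.231. In the permutation test NPPB was at 0.407 and NPR3 at -0.0699. NPR2 was at -0.00521 with upper-quartile normalisation, NPR3 at -0.0783 with no sex term, and CORIN at 0.153 with the endothelial covariate. In the interaction of CHF and sex, the cardiomyocyte covariate moved NPR2 to 0.00993, NPR3 to -0.542 and CORIN to -0.288.

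Leaving out 1 dog at a time gave log2 fold changes of -0.614 to 1.03 for NPPA, -0.792 to 0.553 for NPPB, 1.67 to 2.04 for NPPC, 0.0295 to 0.129 for NPR1, -0.00652 to 0.032 for NPR2, -0.485 to 0.355 for NPR3, -0.679 to 0.276 for CORIN and 0.0698 to 0.143 for FURIN. It gave 0 to 1 of 8 genes called, 8 to 28 features called (fewest without CAV1519 or CAV2102), and 0 pathway genes called. The highest of the 8 values came without CAV865 for NPPA and NPPB, and the lowest without CAV1047 for NPPA, NPPB, NPR3, CORIN and FURIN.

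Among the correlations, NPPC with the cardiomyocyte mean was at 0.0487 without the 2 farthest dogs and 0.015 in 10y-noCHF, and with the endothelial mean at -0.119 and -0.107. NPR2 with the cardiomyocyte mean was at 0.105 in 10y-MMVD-CHF. NPR1 with the endothelial mean, at 0.533 in 10y-MMVD-CHF, had an adjusted permutation p of 0.108. With the endothelial mean and without the 2 farthest dogs, Pearson's r passed the threshold for NPR3 at 0.393 and CORIN at 0.359. In 10y-noCHF it passed for NPR3 at 0.497. Spearman's rho did not pass in these settings. Its adjusted permutation p was 0.145 for NPR3 and 0.137 for CORIN without the 2 dogs, and 0.18 for NPR3 in 10y-noCHF. After group and sex means were subtracted, rho with the endothelial mean was 0.352 for NPR3, 0.338 for CORIN and 0.334 for NPPB. These passed narrowly, with adjusted permutation p of 0.0962, 0.0976 and 0.0976. Pearson's r did not pass there, with adjusted permutation p of 0.149, 0.174 and 0.174.

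Fits with the endothelial covariate together with the cardiomyocyte covariate, with DESeq2 and a covariate, and of slopes and pairs were chosen after seeing the data. The labels number each dog once. No paired analysis was possible because the groups share no replicate numbers. At 40 to 1895 counts of NPPC per dog, counting error is small beside the spread between dogs.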

Other observations

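NPPC and NPR1 had r = 0.222 and rho = 0.298 over 34 dogs (permutation p = 0.208 and 0.0877, adjusted 0.344 and 0.205 over 28 pairs), and r = 0.134 without CAV648 and CAV447. The value was r = 0.639 within the 15 dogs of 10y-MMVD-CHF and -0.0432 within the 19 dogs of 10y-noCHF, with no test of how far these 2 values differ.

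The ventricular light chain MYL2 was unequal among dogs, at 0 CPM in the lowest and 538 CPM in the highest, a dog of 10y-noCHF. The means were 5.58 ± 8.38 CPM (SD, n = 15) with CHF and 38.3 ± 124 CPM (SD, n = 19) without. The edgeR log2 fold change of -2.48 (SE 1.17, adjusted p = 0.778) went with these means, whereas 8 of 15 dogs with CHF lay above the median of those without, and DESeq2 gave no adjusted p. NPPA counts per MYL7 count spanned less in 10y-MMVD-CHF, 0.576 to 4.35, than NPPA itself, which spanned 1610-fold.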
